A study of Mus musculus with 55 samples.

Results

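The guanylate-binding proteins (GBPs) and immunity-related GTPases (IRGs) were followed here through the chromatin of 10 genes: Gbp2, Gbp3, Gbp4, Gbp5, Gbp7, Irgm1, Irgm2, Igtp, Iigp1 and Ifi47. The regions studied were those open-chromatin sites to which the deposited tables assign 1 of these gene names and which lie within 100 kb of its transcription start site. This gave 52 of 97113 regions, and 10 of the 18490 genes that had such a region. Gbp5 had 12 regions, Irgm1 8, Gbp3 and Gbp7 7 each, Irgm2 5, Gbp2 and Ifi47 4 each, Gbp4 3, and Igtp and Iigp1 1 each. None of the 10 genes was absent.

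The cells were bone marrow-derived macrophages of C57BL/6 mice, grown from marrow with macrophage colony-stimulating factor and held in low serum overnight before treatment. They received the vehicle PBS, 3'SL (3'sialyllactose, a milk sugar of lactose capped with sialic acid) at 100 µg/ml, the bacterial endotoxin LPS at 10 ng/ml, or 3'SL together with LPS, for 2 or 6 h. All groups share the strain, the culture and the starvation. Acetylated histone H3 lysine 27 (H3K27ac, a mark of active promoters and enhancers) and the acetyltransferase p300 were measured by chromatin immunoprecipitation and sequencing. The open regions themselves came from macrophages of another study, given vehicle or a purified lipid A. Each treatment group with LPS or 3'SL held 2 libraries for each antibody. The vehicle libraries used here were, for H3K27ac, 2 at 2 h, 1 at 6 h (replicate 2) and 1 whose label gives no time, and for p300 the replicate-2 library at each time. Other vehicle libraries among the samples (H3K27ac at 6 h, replicate 1, and p300, replicate 1) were not used here. No source used here says that replicates came from separate animals or cultures, so p-values measure the spread between these libraries, which may be technical.

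GBPs and IRGs are large GTPases made in quantity after interferon exposure. They gather on the vacuoles that enclose bacteria and protozoa, help to break them open, and expose microbial products to inflammasomes. LPS induces interferon-beta in macrophages, which acts back on the cells through JAK kinases and STAT and IRF factors. The interferon-stimulated response element (ISRE) and the gamma-activated site (GAS) are the DNA elements these factors bind.

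Signal was counted in tags (mapped sequence reads), 1000 bp around each region for H3K27ac and 200 bp for p300. Totals ran from 4.20 to 39.6 M tags in the H3K27ac libraries and from 3.20 to 18.1 M tags in the p300 libraries. Libraries of the replicates differed in enrichment: 42.6 to 64.8% of H3K27ac tags fell in the regions in replicate 1 and 72.4 to 79.3% in replicate 2, against 8.65 to 8.85% in the 3 input libraries. For p300 these shares were 6.12 to 9.42% in replicate 1, 20.1 to 27.5% in replicate 2 and 4.77% in the input. The treatment label of 3 replicate-1 H3K27ac libraries (LPS, 3'SL and 3'SL with LPS) gives 1 h where their titles give 2 h, and that of the replicate-2 library titled 3'SL with LPS at 2 h names the vehicle. Titles were followed. Summed H3K27ac over the regions of 7 macrophage marker genes was 10165 to 15712 normalised tags per library, and over those of 6 T cell, neutrophil and fibroblast markers (Cd4, Elane, Mpo, S100a8, Col1a1 and Col1a2) it was 120.5 to 396 normalised tags. The T cell markers Cd3e and Cd3g had no region.

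Promoter sequences are shown for members whose acetylation or p300 results are described most closely. Each is the 250 bases upstream of the RefSeq transcription start (GRCm38.p6), read 5′ to 3′ on the gene's strand. Capitals mark matches to an ISRE core (TTTC, any 2 bases, TTTC), a GAS core (TTC, any 3 bases, GAA) or the NF-kB consensus, on either strand; overlapping matches run together.
Gbp2: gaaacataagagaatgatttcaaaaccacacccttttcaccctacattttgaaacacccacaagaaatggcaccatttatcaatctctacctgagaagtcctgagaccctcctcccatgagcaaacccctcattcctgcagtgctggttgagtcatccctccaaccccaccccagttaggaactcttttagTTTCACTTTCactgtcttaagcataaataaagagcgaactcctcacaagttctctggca
Gbp5: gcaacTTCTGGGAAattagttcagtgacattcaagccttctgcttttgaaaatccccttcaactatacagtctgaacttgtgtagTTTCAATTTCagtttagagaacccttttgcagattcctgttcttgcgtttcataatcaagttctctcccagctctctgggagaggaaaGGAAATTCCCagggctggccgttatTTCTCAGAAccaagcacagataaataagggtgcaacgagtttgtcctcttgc
Gbp7: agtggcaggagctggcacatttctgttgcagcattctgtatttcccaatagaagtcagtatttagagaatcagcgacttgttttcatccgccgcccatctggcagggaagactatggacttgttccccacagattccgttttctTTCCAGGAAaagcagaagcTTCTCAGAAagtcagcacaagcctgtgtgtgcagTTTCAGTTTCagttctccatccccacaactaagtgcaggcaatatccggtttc
Igtp: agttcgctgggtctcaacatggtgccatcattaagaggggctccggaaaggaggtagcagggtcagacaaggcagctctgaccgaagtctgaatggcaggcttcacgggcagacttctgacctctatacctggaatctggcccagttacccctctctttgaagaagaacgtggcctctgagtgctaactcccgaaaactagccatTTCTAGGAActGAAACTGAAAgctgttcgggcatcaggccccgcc
Irgm1: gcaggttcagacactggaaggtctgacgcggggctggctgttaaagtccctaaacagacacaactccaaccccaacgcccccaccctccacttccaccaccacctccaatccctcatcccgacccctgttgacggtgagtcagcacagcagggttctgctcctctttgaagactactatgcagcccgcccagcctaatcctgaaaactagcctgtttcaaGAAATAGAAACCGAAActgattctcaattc

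The promoters lie at chr3:142620413-142620662 (Gbp2, plus strand), chr3:142496684-142496933 (Gbp5, plus), chr3:142530086-142530335 (Gbp7, plus), chr11:58199306-58199555 (Igtp, plus) and chr11:48871421-48871670 (Irgm1, minus). Counting back from the start site, the Gbp2 promoter holds 1 ISRE core at −59 to −50. The Gbp5 promoter holds an ISRE core at −165 to −156, the NF-kB consensus at −77 to −68 and GAS cores at −245 to −237 and −52 to −44. In Igtp a GAS core at −45 to −37 is followed by an ISRE core at −34 to −25. Irgm1 has ISRE cores at −30 to −21 and −24 to −15, which overlap.

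Of the 10 members, 8 matched a promoter entry; Gbp4 and Iigp1 did not. An ISRE core was present in 7 of these 8 (87.5%), against 2.98% of 32851 mouse promoters of the same length. A GAS core was present in 4 of 8 (50.0%), against 7.02%, and the NF-kB consensus in 1 of 8, against 3.90%. The Ifi47 promoter window held none of the 3 motifs. For members the first entry of each gene was counted, while the share over mouse promoters counts every entry. A further Gbp3 entry, left out of these counts, held none of the 3 motifs. Among the 201-base windows centred on the 52 regions, 15 (28.9%) held an ISRE core, against 3.27% of all 97113 windows. These 15 include 2 pairs of overlapping windows, at Gbp7 and Irgm1, that hold the same match. Of the 52 windows, 6 (11.5%) held a GAS core, against 5.73%, and 1 (1.92%) held the NF-kB consensus, against 4.03%. For Gbp4, the region with the highest mean H3K27ac over all libraries lies at −6347 from the start site, in intergenic sequence (chr5:105145833-105146033, mm10, plus strand). That rank rests on replicate 1. After 2 h of LPS this region held 162 and 7.11 normalised tags in replicates 1 and 2, and the Gbp4 promoter region 60.0 and 9.96. The window of the upstream region held 1 ISRE core and 2 GAS cores, in capitals.
Gbp4 upstream region: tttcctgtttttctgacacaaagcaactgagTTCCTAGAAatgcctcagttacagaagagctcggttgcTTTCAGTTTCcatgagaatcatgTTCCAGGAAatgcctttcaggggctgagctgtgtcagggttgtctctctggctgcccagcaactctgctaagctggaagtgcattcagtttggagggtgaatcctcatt

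H3K27ac at 2 h of LPS was above the 2 h vehicle in every member, in both libraries. The vehicle library of unstated time was also below both LPS libraries, except for Gbp4 (33.3 normalised tags, against 242 and 23.5). The plot of H3K27ac by library shows all groups, and every value that follows is in normalised tags summed over the gene's regions. Overlapping windows (13 neighbouring pairs) count shared tags in both.

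**Figure D1:**
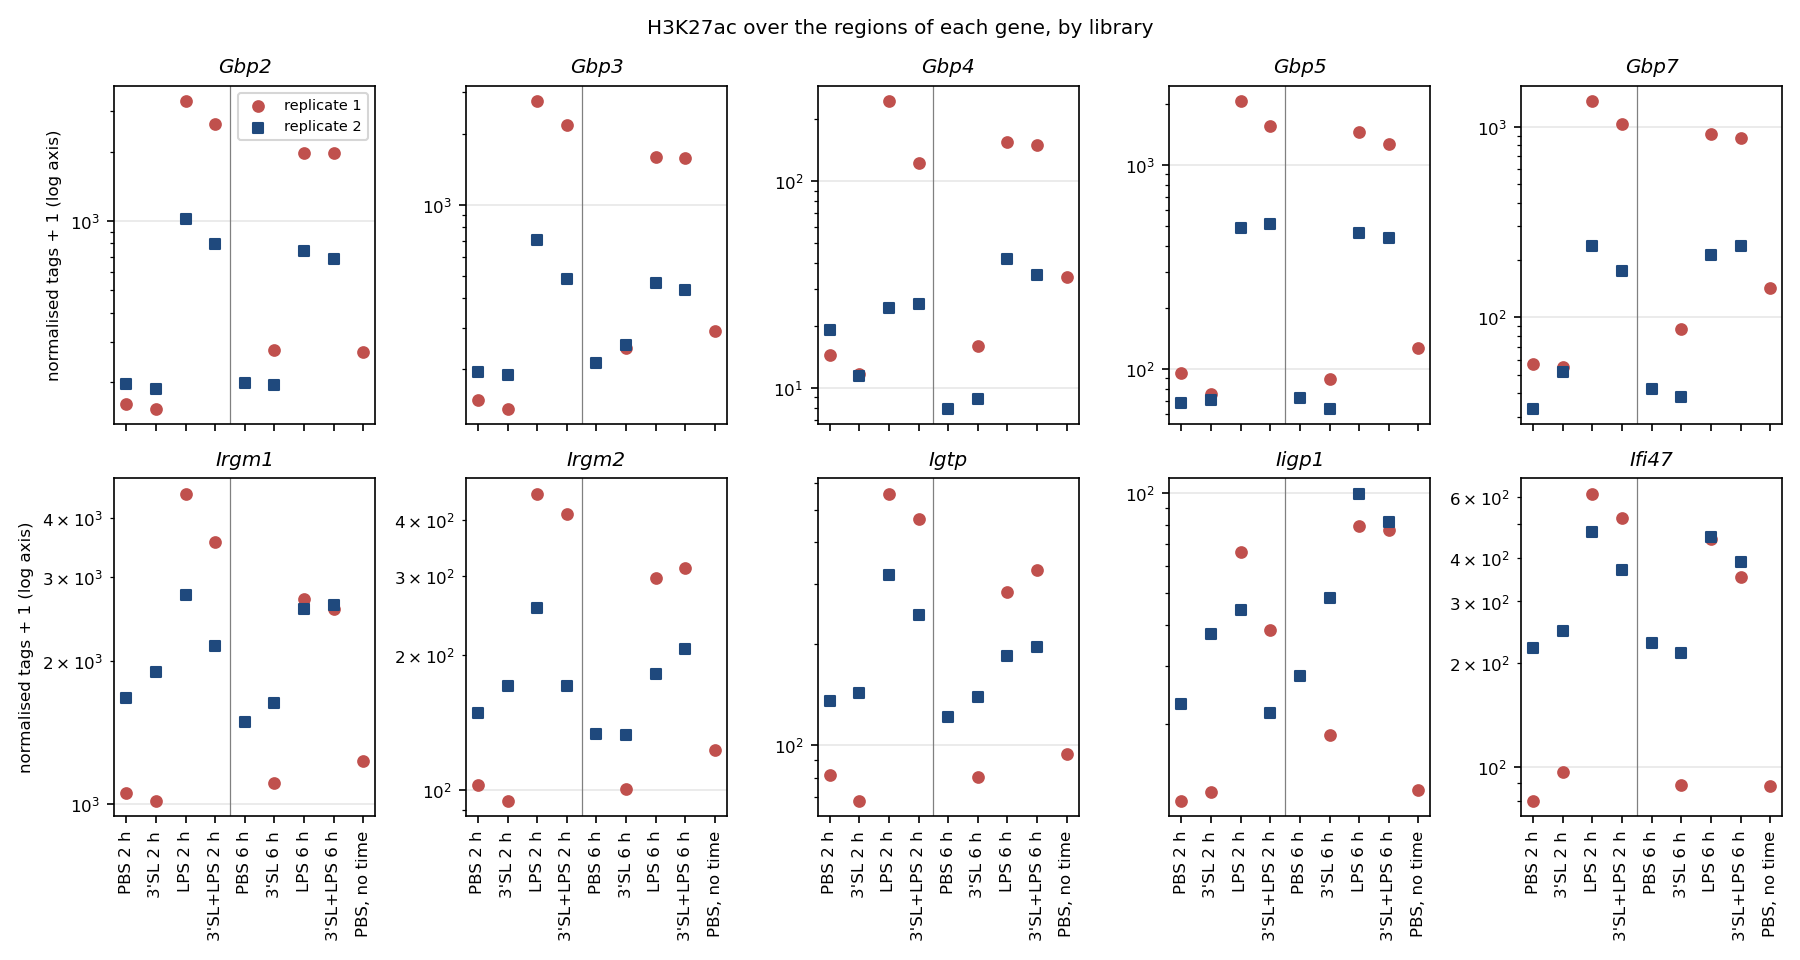
H3K27ac over the regions of each of the 10 genes, as normalised tags plus 1 on a log axis, by treatment group; each point is 1 library (circles replicate 1, squares replicate 2). Libraries with LPS stand above the vehicle and 3'SL libraries for Gbp2, Gbp3, Gbp5 and Gbp7 at both times; Gbp5 runs from 2052 and 489 after 2 h of LPS to 95.1 and 67.3 in PBS.

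Among the GBPs, Gbp5, which promotes NLRP3 inflammasome assembly, had 95.1 and 67.3 normalised tags in the PBS libraries of replicates 1 and 2 and 2052 and 489 after 2 h of LPS. The 2 pairs of libraries did not overlap, and the log2 change was 3.63 (SE 0.78, limma, adjusted p = 0.0242). Gbp2, which coats and disrupts pathogen vacuoles, had 161 and 196 in PBS and 3299.8 and 1014 after LPS, a log2 change of 3.36 (SE 0.73, limma, adjusted p = 0.0243). Both genes rose. Gbp7, a further GBP of the chromosome 3 cluster, had 55.6 and 32.2 in PBS and 1361 and 235 after LPS. Its log2 change of 3.71 was the highest of the 10 members, but the SE was 1.05 and it did not pass (limma, adjusted p = 0.0697). Gbp3 had 147 and 194 in PBS and 2741 and 705 after LPS, and Gbp4 had 13.5 and 18.1 in PBS and 242 and 23.5 after LPS. Gbp4 showed the widest gap between replicates. Neither passed (limma, adjusted p = 0.0720 and 0.322).

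Among the IRGs, Igtp, a regulatory member that shields host membranes, had 80.8 and 134 normalised tags in PBS and 556 and 318 after 2 h of LPS. It rose by 2.01 on the log2 scale (SE 0.51, limma, adjusted p = 0.0466), just inside the threshold of 0.05. Irgm1, the regulatory IRG known for mycobacterial resistance and autophagy, had 1053 and 1666 in PBS and 4491 and 2754 after LPS, a log2 difference of 1.41 (limma, adjusted p = 0.0639). Irgm2, also a regulatory member, had 101 and 148 in PBS and 457 and 254 after LPS. Iigp1, an effector that oligomerises on the vacuole, had 10.8 and 22.1 in PBS and 65.3 and 43.4 after LPS. Ifi47, another effector-type IRG, had 79.0 and 220.1 in PBS and 612 and 476 after LPS. Groups did not overlap in any of the 5, and the 4 other than Igtp did not pass (adjusted p 0.0623 to 0.146).

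In all, 3 of 10 members rose in H3K27ac at 2 h, where 3.41% of 16873 genes were called higher. All 10 log2 differences were above 0, with a median of 2.12 against 0.09 over all genes tested. The 5 GBP differences (2.21 to 3.71) were all larger than the 5 IRG differences (1.41 to 2.02), a description without a test. Within replicate 1 the 2 ranges were also apart (4.07 to 4.59 against 2.09 to 2.94). Within replicate 2 they overlapped (0.36 to 2.84 against 0.72 to 1.24). The replicate-1 pair gave a larger difference than the replicate-2 pair in 10 of 10 members, 2.09 to 4.59 against 0.36 to 2.84. Libraries with the same number deviated together, and with the replicate number as a block in the limma fit all 10 members rose (adjusted p 6.58e-05 to 0.0360), where 12.8% of genes were called higher. No member was called without LPS replicate 1, without PBS replicate 1 or without PBS replicate 2, and 2 were called without LPS replicate 2. With edgeR on the recovered tags, Gbp2 and Gbp5 passed (adjusted p = 0.0269 and 0.0263) and Igtp did not (adjusted p = 0.0502), among 903 genes called in either direction. When the vehicle library of unstated time was added to the vehicle, 7 members were called. The share of all genes called in that fit was not counted, so this number cannot be set against the 3.41%.

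**Figure D2:**
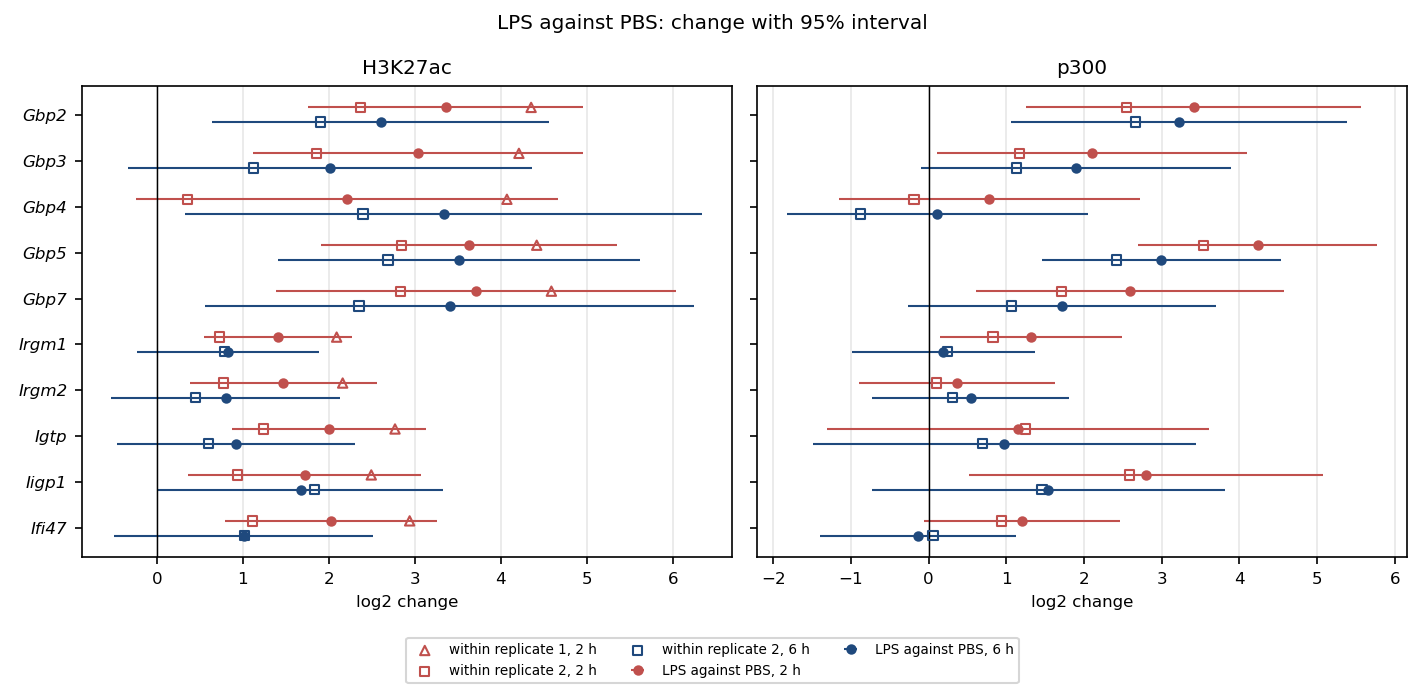
Log2 change of LPS against PBS for each member, H3K27ac on the left and p300 on the right, at 2 h (red) and 6 h (blue); filled points and bars are the limma estimate with its 95% interval, open triangles and squares the difference within replicate 1 and replicate 2. In H3K27ac at 2 h, the limma estimates of the 5 GBPs lie to the right of those of the 5 IRGs. They run from 2.21 to 3.71 against 1.41 to 2.02, while the replicate-2 squares overlap (0.36 to 2.84 against 0.72 to 1.24).

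Input chromatin sets the floor of these values. On the authors' scale, the summed Gbp5 regions held 87.5 and 77.2 tags per 10000000 in the PBS 2 h libraries and 68.3 to 97.3 in the 3 inputs, so the vehicle level was within the input range. Gbp7 held 51.2 and 36.9 in PBS at 2 h and 37.6 to 54.6 in the inputs. Irgm1 held 969.5 and 1912 in PBS and 69.0 to 88.9 in the inputs, and Igtp 74.3 and 153 in PBS and 2.73 to 7.80 in the inputs. Irgm1 and Igtp thus carried H3K27ac above input in the vehicle, while neither PBS 2 h library exceeded the highest input at Gbp5 or Gbp7. Nor did either at Gbp4, with 12.4 and 20.8 in PBS and 13.3 to 25.9 in the inputs. Iigp1 held 9.91 and 25.4 in PBS and 5.46 to 10.1 in the inputs, so its replicate-1 vehicle was in the input range. For Gbp2, Gbp3, Irgm2 and Ifi47 both PBS 2 h libraries were above all 3 inputs. Input tags were not subtracted from any value.

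Of 50 member regions that passed the filter on low tags, 11 rose in H3K27ac at 2 h, where 3.0% of 78087 regions were called higher; with the block 29 did, where 11.7% were. By gene, 3 were at Gbp2, 3 at Gbp5, 2 at Gbp3 and 1 each at Igtp, Irgm1 and Ifi47. Neighbouring windows can overlap and share tags (13 pairs), those of Gbp2 among them, so called regions are not all separate sites. The sums of Gbp3, Irgm1 and Ifi47 had not passed, and no region of Gbp7 was called. Below 0 were 5 of the 50 regions, 2 at Gbp5, 2 at Irgm2 and 1 at Ifi47. No region was called without LPS replicate 1 or PBS replicate 2, 1 without PBS replicate 1 and 5 without LPS replicate 2. In 8 of 10 members the region nearest the start site was also the one with the highest mean H3K27ac. For Igtp and Iigp1 this was fixed in advance, since each has 1 region, that of Iigp1 at 5357 from the start site. Gbp4 and Irgm1 were the exceptions, with their regions of highest mean at −6347 and −952.

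The promoter region of Gbp5 (chr3:142496279-142497279, mm10, centred at −155 from the start site), which takes in the ISRE, GAS and NF-kB matches shown above, held 28.7 and 23.1 normalised H3K27ac tags in PBS and 811 and 186 after 2 h of LPS. It rose by 3.87 on the log2 scale (limma, adjusted p = 0.0155). The promoter region of Gbp2 (chr3:142620190-142621190) went from 79.9 and 93.5 to 1394 and 455, a rise of 3.19 (limma, adjusted p = 0.0172). The Ifi47 promoter region (chr11:49076104-49077104) held 40.4 and 77.4 in PBS and 357 and 372 after LPS. Its rise of 2.68 (limma, adjusted p = 0.0138) stood beside a gene sum that did not pass, and its replicates were close after LPS. The Irgm1 promoter region (chr11:48870994-48871994) held 269 and 450.2 in PBS and 1389 and 844 after LPS, a rise of 1.63 (limma, adjusted p = 0.0440). The Irgm2 promoter region (chr11:58214419-58215419) held 58.3 and 92.5 in PBS and 417 and 218 after LPS, without passing (limma, adjusted p = 0.0548). The upstream Gbp4 region went from 7.18 and 1.00 normalised tags in PBS to 162 and 7.11 after LPS, so its gain was seen mainly in replicate 1 (limma, adjusted p = 0.314).

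**Figure D3:**
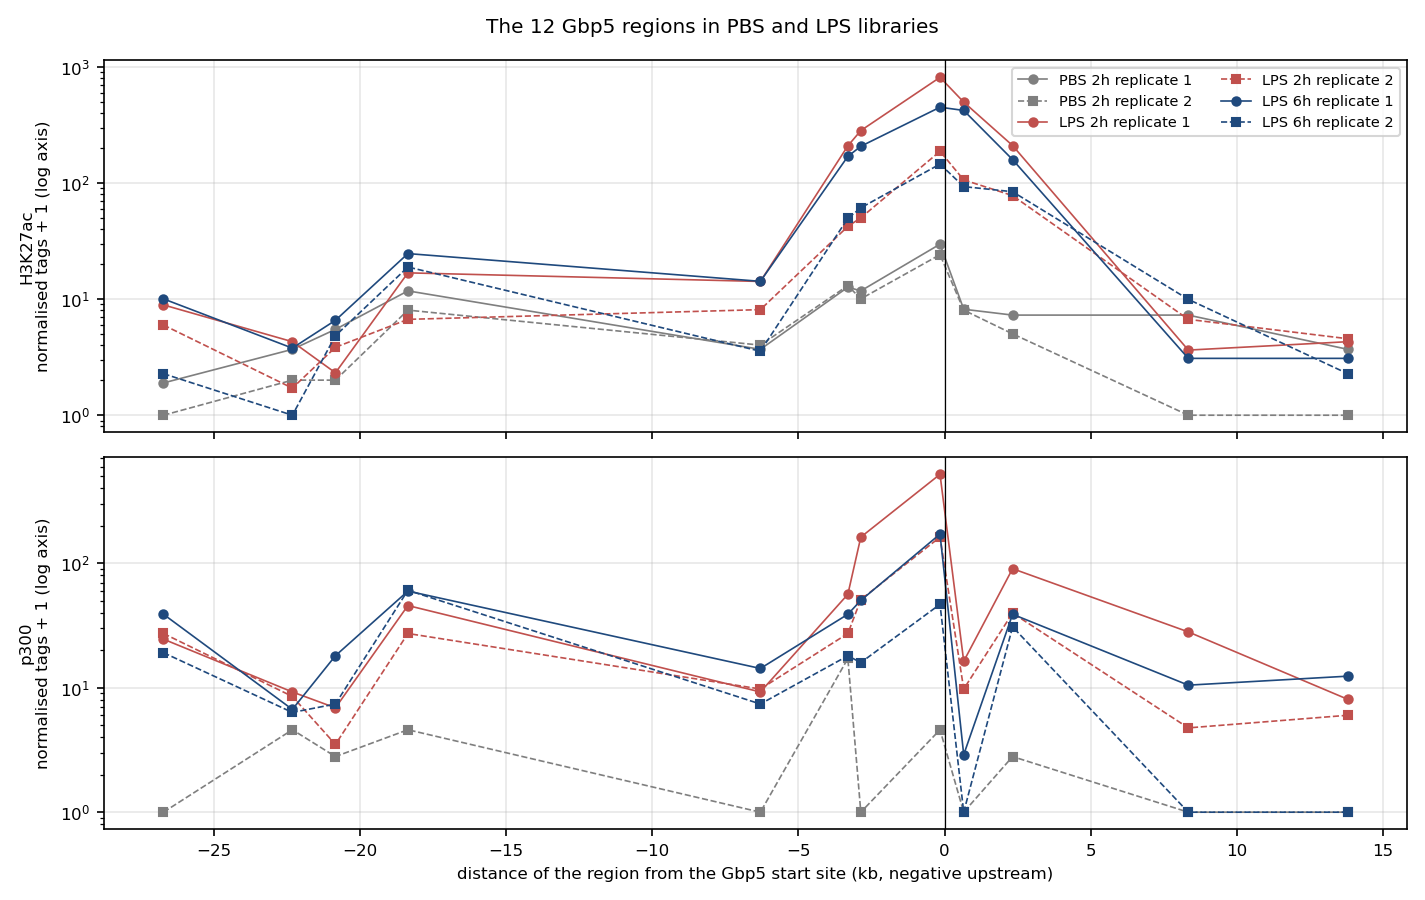
The 12 regions assigned to Gbp5 by distance from its start site in kb, H3K27ac above and p300 below, as normalised tags plus 1 on a log axis; lines join the regions of 1 library in PBS 2 h, LPS 2 h and LPS 6 h (solid replicate 1, dashed replicate 2). Both marks peak at the promoter region under LPS, with H3K27ac at 811 and 186 after 2 h.

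After 6 h of LPS, H3K27ac was above the single matched vehicle library in all 10 members, with no overlap in any, and no member passed (limma). Gbp5 had 71.2 normalised tags in PBS and 1459 and 464 after LPS, a log2 difference of 3.51 (SE 0.96, limma, adjusted p = 0.150). Gbp2 had 198 in PBS and 1977 and 741 after LPS, and Gbp7 40.8 in PBS and 922 and 212 after LPS. Irgm1 had 1484 in PBS and 2703 and 2566 after LPS, so its LPS libraries lay close together. The median of the members was 1.84, against −0.03 over all genes. GBP differences of 2.01 to 3.51 again stood above the IRG differences of 0.80 to 1.67. Within replicate 2, the replicate of the vehicle, the median was 1.48 and the ranges overlapped (1.12 to 2.69 against 0.45 to 1.83). Of all genes, 0.403% were called higher. At an unadjusted p under 0.05 there were 5 members, and edgeR called 0 members among 58 genes. With the block Gbp2, Gbp5 and Gbp7 rose (limma, adjusted p = 0.0394, 0.00396 and 0.0208), where 3.84% of genes were called higher. Of member regions 0 were called (0.516% of all regions, 15 member regions at an unadjusted p under 0.05), and 13 with the block (4.98%); edgeR called 0 member regions.

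Iigp1 was the member whose H3K27ac was higher at 6 h than at 2 h of LPS in both replicates, 78.6 and 98.4 against 65.3 and 43.4 normalised tags. For LPS at 6 h against LPS at 2 h, 8 of 10 members were below 0, with a median of −0.39 against −0.11 over all genes, and Gbp4 and Iigp1 were above. No member passed (limma; 0.0% of all genes called, 0 members at an unadjusted p under 0.05, and 0 genes with edgeR). With the block 0.533% of genes were called lower and none of the members. The change of the LPS response from 2 to 6 h, tested as its own contrast, passed in no member (limma, adjusted p at least 0.999).

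p300 rose at Gbp5 after 2 h of LPS; each time had 1 vehicle library to compare with. Gbp5 had 30.6 normalised tags in PBS at 2 h and 966 and 366 after 2 h of LPS, a rise of 4.24 on the log2 scale (SE 0.71, limma, adjusted p = 0.0113). Gbp2 had 28.8 in PBS and 578 and 173 after LPS, a log2 difference of 3.41 (limma, adjusted p = 0.114). Gbp7 had 63.0 in PBS and 714 and 208 after LPS, and Gbp3 had 63.0 in PBS and 525 and 143 after LPS. The LPS libraries of these 4 GBPs lay above the vehicle, replicate 1 highest. Gbp4 had 14.4 in PBS and 50.7 and 12.5 after LPS, and so overlapped.

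The p300 log2 differences of Irgm1, Irgm2, Igtp and Ifi47 ran from 0.37 to 1.32 and those of the 5 GBPs from 0.78 to 4.24, so the ranges overlapped. Irgm1 had 99.0 in PBS and 348 and 177 after 2 h of LPS, a log2 difference of 1.32 (limma, adjusted p = 0.296). Irgm2 had 66.6 in PBS and 104 and 71.4 after LPS. Ifi47 had 50.4 in PBS and 140.4 and 97.8 after LPS, and Igtp 12.6 in PBS and 27.1 and 31.3 after LPS. Iigp1 was at 0 tags in PBS and at 7.08 and 5.01 normalised tags after LPS, for which no fold is given.

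**Figure D4:**
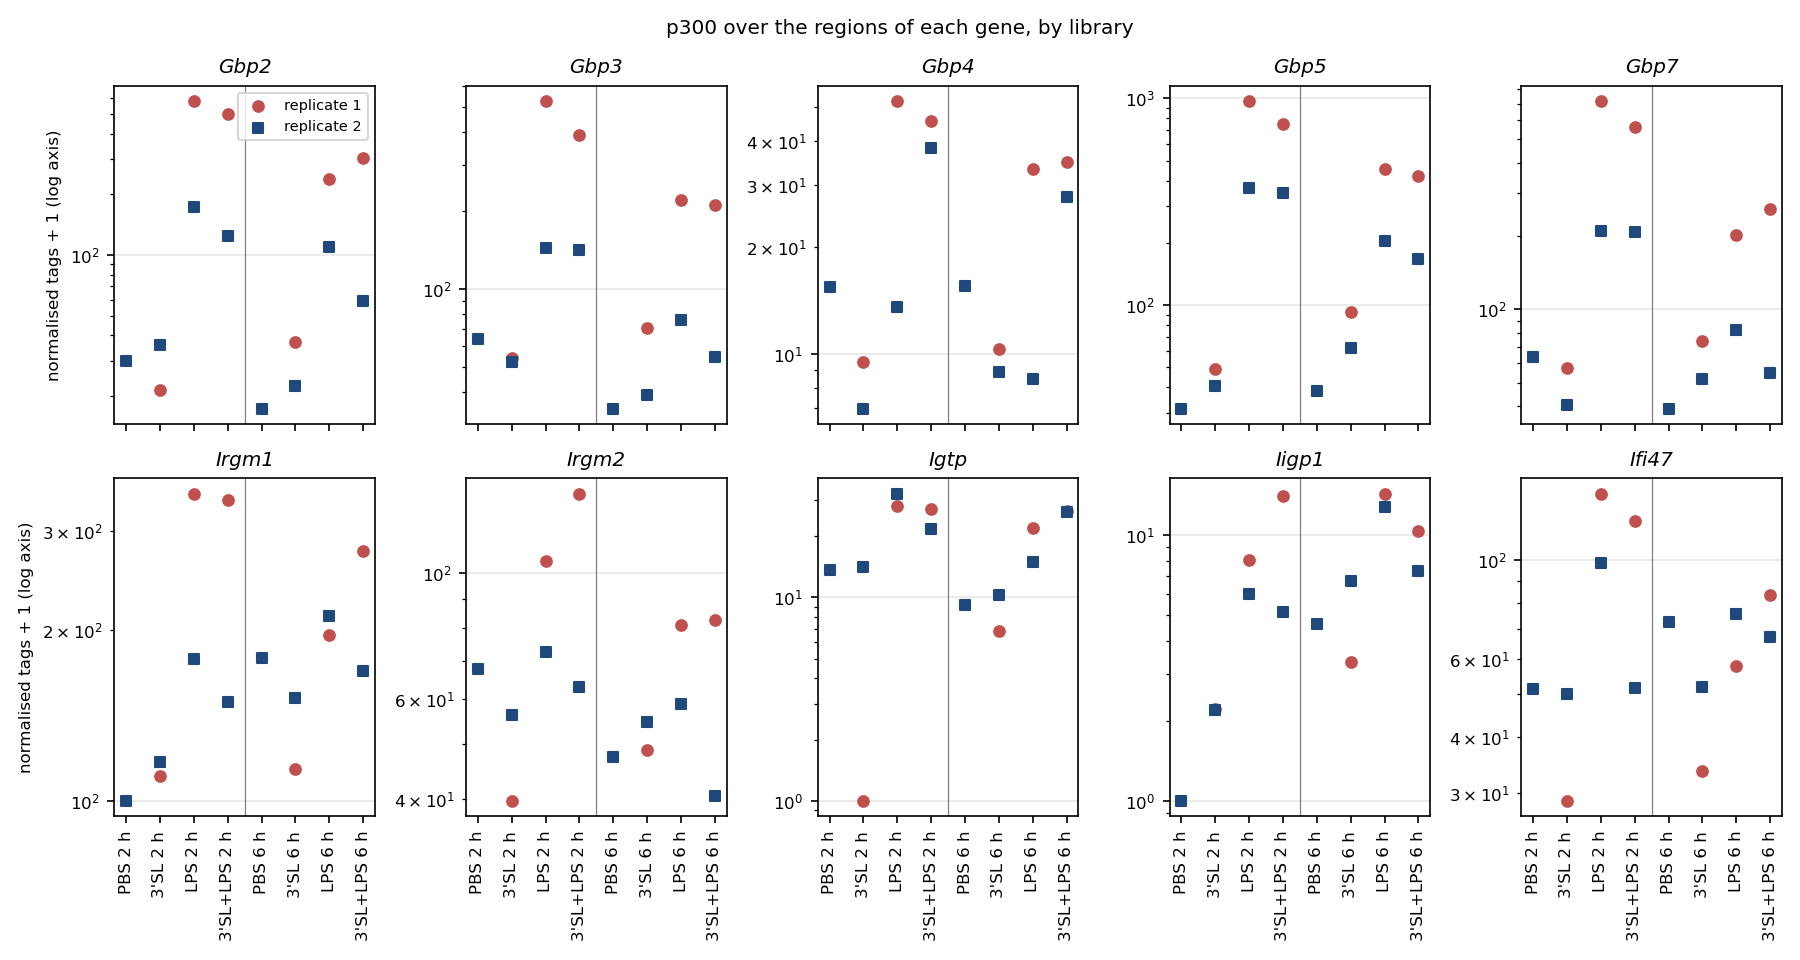
p300 over the regions of each of the 10 genes, as normalised tags plus 1 on a log axis, by treatment group; each point is 1 library (circles replicate 1, squares replicate 2), and vehicle groups hold replicate 2 only. Gbp5 stands at 966 and 366 after 2 h of LPS and at 30.6 in PBS.

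In all, 1 of 10 members rose in p300 at 2 h, where 1.44% of 15764 genes were called higher. All 10 log2 differences were above 0, with a median of 1.71 against 0.11 over all genes. Setting the Iigp1 vehicle, which was at 0, to a floor of 3 tags in that library gave a median of 1.26. LPS replicate 1 had no p300 vehicle of the same replicate here, so these differences mix replicate and LPS. Within replicate 2 the median was 1.21 with 9 of 10 above 0, Gbp4 being at −0.19. On the authors' own scaling, without the factors used here, the median over all genes was −0.73, no member was called, and Gbp4 and Irgm2 were below 0. With the block Gbp2, Gbp3, Gbp5 and Gbp7 rose (limma, adjusted p = 0.00203, 0.0428, 1.75e-07 and 0.00466), where 6.86% of genes were called higher. Gbp5 lost its call without LPS replicate 1 (limma, adjusted p = 0.0879) and with edgeR (adjusted p = 0.0691), which called 48 genes and 0 members, while 6 members were at an unadjusted p under 0.05 in limma.

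Of 46 member regions tested for p300, 6 rose at 2 h, 5 of them at Gbp5 and 1 at Gbp2; 2.19% of 59858 regions were called higher. With the block 12 rose (5.85%). The p300 vehicle library at 2 h was the shallowest, with 3.20 M tags, and these 6 regions held 0 to 2 tags in it. Their log2 values therefore depend on the pseudocount of 1 and bound nothing. The Gbp5 promoter region held 2 tags in PBS, or 3.60 normalised, and 440 and 129 tags after LPS, or 519 and 162 normalised (limma, adjusted p = 0.00277). edgeR called none of the 46, 21 of them were at an unadjusted p under 0.05 in limma, and without LPS replicate 1 a single region was called.

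At 6 h, p300 at Gbp5 was 37.2 normalised tags in PBS and 452 and 204 after LPS, a log2 difference of 2.99 (SE 0.71, limma, adjusted p = 0.156). Gbp2 had 16.3 in PBS and 237 and 109 after LPS. Irgm1 had 178 in PBS and 196 and 211 after LPS, a difference of 0.19, and Ifi47 had 71.7 in PBS and 56.99 and 74.7 after LPS, which overlapped. No member was called (limma; 0.121% of genes called higher, 2 members at an unadjusted p under 0.05, and 0 members with edgeR). The median was 1.26 against −0.06 over all genes, with 9 of 10 above 0. Within replicate 2, the replicate of the vehicle, the median was 0.88, with 9 of 10 above 0. On the authors' scaling the median over all genes was −1.05, and Gbp4, Irgm1 and Irgm2 were below 0. With the block Gbp2 and Gbp5 rose (limma, adjusted p = 0.0100 and 0.000187; 2.11% of genes). Of member regions 2 rose, both at Gbp5 (0.406% of all regions), none without LPS replicate 1 and none without LPS replicate 2, and 6 with the block (2.09%). The Gbp5 promoter region held 2.72 normalised tags (3 tags) in PBS and 171 and 45.9 after LPS (limma, adjusted p = 0.0414).

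Between 2 and 6 h of LPS, p300 was lower at 6 h in 9 of 10 members, with a median log2 difference of −0.79 against −0.04 over all genes. Gbp7 went from 714 and 208 to 201 and 81.1 normalised tags, a difference of −1.58. No member passed (limma; 0.0% of genes called, 0 members at an unadjusted p under 0.05, 0 genes with edgeR). With the block Gbp7 fell (limma, adjusted p = 0.0438), where 0.241% of genes were called lower. Iigp1 was the member above 0, with 13.3 and 11.7 at 6 h against 7.08 and 5.01 at 2 h. These are low counts, 7 and 11 tags against 6 and 4. The change of the p300 response to LPS from 2 to 6 h passed in no member as its own contrast. The comparisons with PBS at the 2 times share no library, while those of LPS at 6 h against 2 h reuse the LPS libraries of both.

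With 3'SL alone no member was called in either mark. Gbp5 H3K27ac was 74.7 and 69.6 normalised tags after 2 h of 3'SL, beside 95.1 and 67.3 in PBS, and 88.0 and 63.0 after 6 h, beside 71.2. Irgm1 had 1015 and 1896 after 2 h, beside 1053 and 1666. The log2 differences ran from −0.52 to 0.39 at 2 h and from −0.72 to 0.58 at 6 h, 5 and 6 of 10 being above 0. The 6 h vehicle is of replicate 2 alone, and with the block 1 of 10 was above 0 at 6 h and the median went from 0.08 to −0.25. For p300, Gbp5 had 48.3 and 39.5 after 2 h of 3'SL, beside 30.6 in PBS, and 92.0 and 60.8 after 6 h, beside 37.2. On the authors' scale, Gbp5 in the replicate-1 library of 3'SL at 2 h held 25.0, below the 34.6 of the p300 input. In that library Irgm1 held 56.9, beside 54.6 in the input, and Gbp7 29.4, beside 18.2. Differences in p300 ran from −1.85 to 1.14 at 2 h and from −0.80 to 0.99 at 6 h, with 3 and 6 of 10 above 0 (3 and 4 with the block). Both extremes at 2 h involve a library at 0 tags and so depend on the pseudocount. The lowest is Igtp, at 0 tags in 3'SL replicate 1, and the highest Iigp1, at 0 tags in PBS and 1 tag in each 3'SL library. No member passed in H3K27ac (limma; 0.0% of genes called at both times) or in p300 (0.0381% at 2 h and 0.0% at 6 h). None was at an unadjusted p under 0.05 in these 4 comparisons, and edgeR called 0 genes in each.

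**Figure D5:**
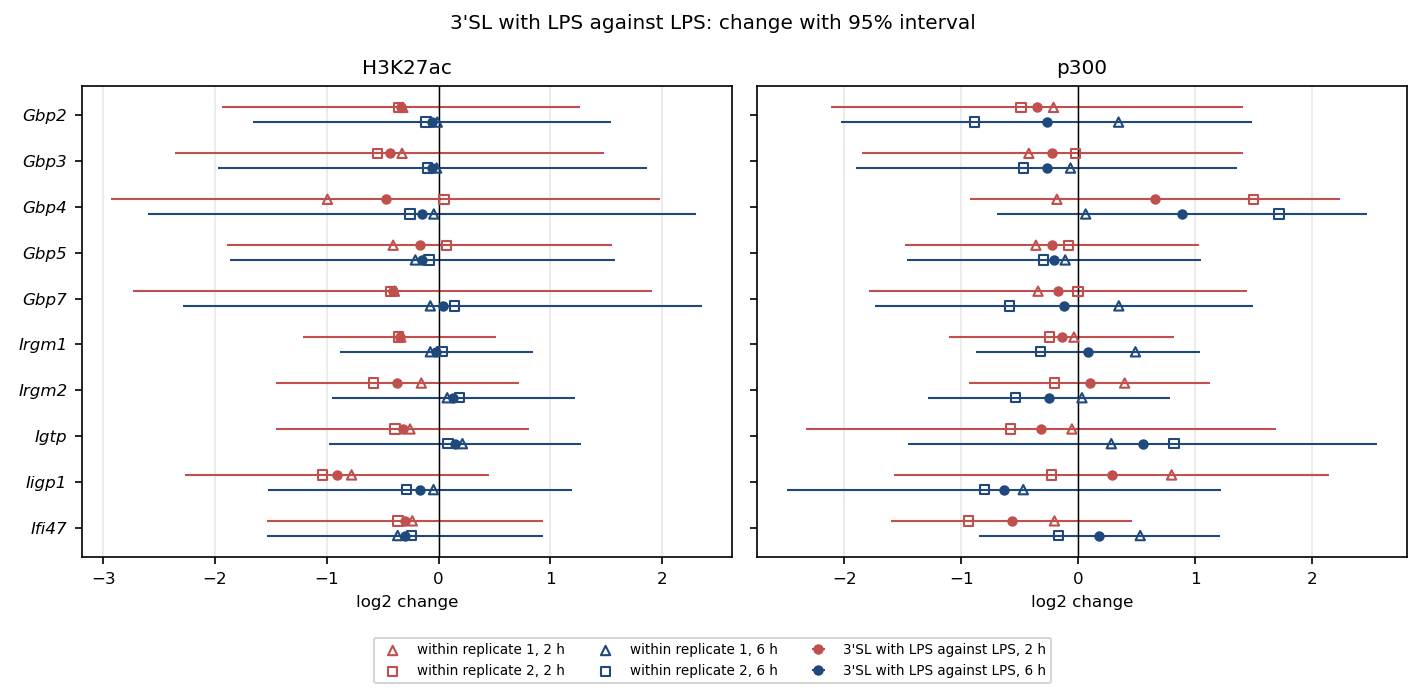
Log2 change of 3'SL with LPS against LPS alone for each member, H3K27ac on the left and p300 on the right, at 2 h (red) and 6 h (blue); filled points and bars are the limma estimate with its 95% interval, open triangles and squares the difference within replicate 1 and replicate 2. All intervals include 0; the 10 H3K27ac estimates at 2 h run from −0.91 to −0.17.

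With 3'SL added to LPS for 2 h, H3K27ac was lower than with LPS alone in all 10 members, by amounts that did not pass any test. Gbp2 had 2644 and 792 normalised tags with both agents and 3299.8 and 1014 with LPS alone, a log2 difference of −0.34 (95% interval −1.94 to 1.26). Irgm1 had 3554 and 2151 beside 4491 and 2754, a difference of −0.35 (−1.21 to 0.52). Iigp1 had 37.7 and 20.6 beside 65.3 and 43.4, a difference of −0.91 (−2.26 to 0.45). Gbp5 had 1549 and 513 beside 2052 and 489, so its replicates went in opposite directions. The 10 differences had a median of −0.36, against 0.03 over all genes, of which 45.5% were below 0. Replicate 1 was lower in 10 of 10 members and replicate 2 in 8, Gbp4 and Gbp5 being higher. No member was called (limma, adjusted p 1.00 for each; 0.0% of genes called, 0 members at an unadjusted p under 0.05, 0 genes with edgeR), and the block called none. Without either of the libraries treated with both agents, including the one whose treatment label names the vehicle, 0 members were called.

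At 6 h, H3K27ac with both agents was again compared with LPS alone. Gbp2 had 1962 and 686 normalised tags beside 1977 and 741, and Gbp5 1263 and 437 beside 1459 and 464. Of the 10 differences, 7 were below 0, with a median of −0.06. For p300, Gbp5 had 751 and 346 with both agents at 2 h, beside 966 and 366, a difference of −0.22 (95% interval −1.48 to 1.03), and 418 and 166 at 6 h, beside 452 and 204. In p300, 7 of 10 differences were below 0 at 2 h (median −0.20) and 6 of 10 at 6 h (median −0.16). No member was called in these 3 comparisons (limma; 0.0% of genes called in each, 0 members at an unadjusted p under 0.05, 0 genes with edgeR). The change of the 3'SL difference from 2 to 6 h, tested as its own contrast, also passed in no member for either antibody. The comparisons of LPS with PBS and of 3'SL with LPS against LPS share the LPS libraries.

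The surrounding pathway was described from lists of interferon signalling and effector genes, whose counts stand beside the 3.41% of all genes called higher in H3K27ac at 2 h, or 12.8% with the block. Among 10 kinases and factors, H3K27ac rose at 2 h of LPS in 3: Jak2, a kinase of the interferon-gamma receptor (409 to 1412 normalised tags, log2 change 1.77), Tyk2, a kinase of the interferon-alpha/beta receptor (297 to 1862, 2.63) and Stat2, a subunit of the ISRE-binding complex (146 to 597, 2.00). The adjusted p was 0.00366, 0.0135 and 0.0134 (limma), the median of the list 1.25, 6 rose with the block and edgeR called 3. Of 3 inhibitors, Socs1, which blocks JAK kinases (378 to 1314, 1.82), and Ptpn2, a phosphatase of JAK and STAT proteins (951 to 1736, 0.87), rose (limma, adjusted p = 0.0137 and 0.0459), and all 3 with the block; edgeR called 1 of the 3. Usp18 did not pass in limma (282 to 917 normalised tags, adjusted p = 0.0788). None of 6 ligands and receptors rose in limma (1 at an unadjusted p under 0.05, 0 with edgeR). With the block Ifnb1, the interferon-beta gene, rose (106 to 249 normalised tags, adjusted p = 0.0438) and Ifngr1, the ligand-binding chain of the interferon-gamma receptor, fell (1954 to 1254, adjusted p = 0.0135).

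Among 11 other GTPases of these families, all were above 0, with a median of 1.51. Gbp6 (36.0 to 396 normalised tags, log2 change 3.28) and Gm12250, an IRG also called Irgb10 (73.9 to 527, 2.76), rose in limma (adjusted p = 0.0363 and 0.0467), and 4 rose with the block; edgeR called 1 of the 11. Gbp6, Gbp8, Gbp9, Gbp10 and Gbp11, and Tgtp1 and Tgtp2, have near-identical copies, between which tags may have been split, so their values are uncertain. The promoters of the members Igtp and Irgm2 also share long identical stretches. Their tags may likewise have been split, those of the called Igtp region included. Of 6 inflammasome genes, Casp1 (611 to 2038, 1.74) and Casp4, the caspase that senses cytosolic LPS (261 to 1940, 2.82), rose (limma, adjusted p = 0.00672 and 0.00286), and 4 with the block; edgeR called 2. In p300 at 2 h, Casp4 was the listed pathway gene called in limma. At 6 h no listed gene was called in limma for either antibody, and edgeR called none; for H3K27ac 7 were at an unadjusted p under 0.05 and 5 were called with the block, and for p300 5 and 3.

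The genes whose H3K27ac was most like the mean of the members, by Pearson correlation of log2 sums over the 16 libraries, were Ifit1bl2 (r = 0.993), Gbp6 (0.988), Parp9 (0.986), Rsad2 (0.986) and Tor3a (0.985). Members themselves ran from 0.738 (Iigp1) to 0.990 (Gbp2) against their own mean, which contains them, and from 0.562 to 0.988 between pairs. For p300 over 14 libraries they were Clec2d (0.978), Ifit1bl2 (0.978), Olfr432 (0.969), Naa25 (0.968) and Olfr433 (0.967). The libraries share treatment groups and replicate numbers, so these values describe a common pattern and are given without a test.

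The deposited peak lists placed p300 peaks over 19 of the 52 member regions (36.5%, at least 1 bp of the 200 bp window), against 34.1% of all regions. Peaks of the sterol-sensing factors LXR and SREBP, called in macrophages given the LXR agonist GW3965, overlapped 8 member regions each (15.4%), against 22.5% and 22.2% of all regions. p300 peaks overlapped at least 1 region of every member, 4 at Gbp5 and 3 at Gbp3.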

How the data were processed

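ChIP-seq signal was taken from the deposited tables of open-chromatin regions: 16 H3K27ac libraries in 9 groups and 14 p300 libraries in 8. Per the file headers, the authors made each signal value with HOMER on mm10, counting tags in 1000 bp (H3K27ac) or 200 bp (p300) windows and scaling to 10000000 tags. Bowtie2, HOMER and DESeq2 are named in the submitters' processing notes, with versions not given in the sources used here. Dividing by the scale gave whole tags for 100% of values (tolerance 0.05). There were 10 columns that matched no sample; these, the replicate-1 vehicles for p300 and the replicate-1 H3K27ac vehicle of 6 h were not used here. A column named PBS2 was read as the 2 h vehicle of replicate 1; "second PBS" is another possible reading.

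Tags were summed per gene over regions within 100 kb. Signal was rescaled by TMM factors, and log2(value + 1) was fitted by limma 3.58.1 (trended, R 4.3.3) with 1 mean per group over all libraries of an antibody, with edgeR's low-count filter (16873 and 15764 genes, 78087 and 59858 regions tested). P-values were Benjamini-Hochberg adjusted over all genes or all regions, and called below 0.05. Reported log2 changes refer to log2(value + 1), which understates changes of low signals. All 10 members passed the filter. edgeR 4.0.16 quasi-likelihood tests on the recovered tags were an alternative, as were a replicate block, the authors' scaling, a pseudocount of 5, no filter, a 20 kb limit, regions from transcription factor peaks, and leaving out each library.

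The pairing of replicate numbers was checked by the correlation of replicate deviations between groups: 0.442 to 0.667 over 21 pairs for H3K27ac and 0.207 to 0.395 over 15 pairs for p300. The numbers therefore pair the libraries, a property seen in the data; the unblocked fit was kept as designed, and blocked values stand beside it. Replicates differed by more than counting noise (chi-square per degree of freedom 8.34 to 28.3). The fit was tested on simulated data for LPS against PBS at 2 h, with 200 genes changed 4-fold. Of these, limma recovered 99.5% with 23 false calls among 16255 H3K27ac genes. For p300 it recovered 75.5% with 75 false calls among 14859 genes, 4 of them in genes averaging at least 100 tags. edgeR recovered 99% and 69.5%, with 17 and 10 false calls. The simulated tags had a fixed spread and no replicate effect, and only well-covered genes were changed. These shares therefore do not give the power in the real libraries, which shared replicate deviations.

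Members, gene lists and motifs were chosen with earlier results of these data known. Named genes were all members, the region nearest each start site and that with the highest mean H3K27ac, the listed pathway genes, and the 5 genes most like the members' mean; single regions outside that rule were chosen after their values were seen. The deposited p65 peak list overlapped 1.58% of open regions and was not read at the members. RefSeq promoters were matched by symbol and checked against the genome (9 of 9 entries).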

Additional observations from a re-analysis of the deposited data

How the results depend on the processing

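Of 432 alternative values for the 40 single-gene results of LPS against PBS, 370 kept their direction and side of the threshold, 34 passed it newly, 16 no longer passed and 12 changed sign. With the replicate block in limma, called H3K27ac members rose from 3 to 10 at 2 h and from 0 to 3 at 6 h, and called regions from 11 to 29 and from 0 to 13. p300 members went from 1 to 4 at 2 h, from 0 to 2 at 6 h and from 0 to 1 for LPS at 6 h against 2 h, and p300 regions from 6 to 12 at 2 h and from 2 to 6 at 6 h. With the replicate block in edgeR these became 10 and 2 H3K27ac members, 29 and 10 regions, 3, 2 and 1 p300 members, and 6 regions at 6 h and 2 for 6 h against 2 h. The block moved no other call count by over 1.5 times.

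edgeR without the block called 0 p300 members at 2 h and 0 p300 regions at either time, as did the authors' scaling; a pseudocount of 5 left 3 p300 regions at 2 h and 0 at 6 h. Adding the vehicle of unstated time, chosen after seeing the data, called 7 H3K27ac members, with the share over all genes not counted. Leaving out 1 library gave 0 to 2 H3K27ac members and 0 to 5 regions at 2 h, 0 to 1 p300 members and 1 to 4 regions at 2 h, and 0 p300 regions at 6 h each time; a lone library is then assumed to vary like the other groups. Leaving out a lone vehicle library was not possible, since no vehicle remained.

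Sign changes were all in p300. Gbp4 at 6 h went from 0.11 to −0.32 (block), −0.21 (edgeR with block), −0.88 (authors' scaling) and −0.88 to 1.10 (without an LPS library), and at 2 h from 0.78 to −0.075 (authors' scaling) and −0.19 to 1.75 (without an LPS library). On the authors' scaling Irgm2 went to −0.51 at 2 h and −0.48 at 6 h, and Irgm1 to −0.84 at 6 h. In transcription factor peaks Irgm1 went to −0.14 and Ifi47 to 0.57 at 6 h; without LPS replicate 1 Ifi47 went to 0.055. The cause was not tested. The p300 vehicle at 2 h held 3.20 M tags.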
